A study of Mus musculus with 2 samples.

Results

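Siglecs are cell surface receptors that bind sialic acid, the sugar that caps many glycans of the body's own cells. The mouse genes described here are the 7 Siglec receptor genes Siglech, Cd33, Siglece, Siglecf, Siglec1, Siglecg and Cd22, chosen by symbol out of the 32285 genes of the deposited count matrices. They were followed through single-cell RNA sequencing of brain cells from 23-week-old male mice, either Disc1 WT/WT (wild type) or Disc1 LI/LI (homozygous for the locus impairment allele of Disc1), which were littermates. The brains of 6 mice of each genotype were pooled, dissociated with actinomycin D to limit transcription during the procedure, sorted for low CD45 and for CD11b, and made into 1 library per genotype. Since there was 1 library per genotype, no statistical test between genotypes was possible, no p-value is given, and every 95% interval covers counting error only.

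Most Siglecs carry inhibitory tyrosine motifs in their tail, which recruit the phosphatases SHP-1 (Ptpn6) and SHP-2 (Ptpn11) and dampen signals from activating receptors. Siglec-H has no such motif and instead pairs with the adaptor DAP12 (Tyrobp), which carries an activating motif read by the kinase SYK. In the brain, Siglec-H is used as a marker of microglia, and elsewhere it marks plasmacytoid dendritic cells. CD33 and Siglec-E are receptors of myeloid cells, Siglec-F of eosinophils and alveolar macrophages, sialoadhesin (Siglec1) of tissue macrophages and interferon-exposed cells, and Siglec-G and CD22 of B cells.

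Barcodes were kept from 200 detected genes upwards if mitochondrial genes gave no more than 10% of their UMIs (unique molecular identifiers, each standing for 1 captured transcript), and were divided into 3 classes. Microglia had at least 0.4% of their UMIs from P2ry12, Gpr34, Tmem119, Fcrls and Olfml3 and under 1% from S100a8 and S100a9. Neutrophils had at least 3% from S100a8 and S100a9, and all remaining cells were called other cells. Disc1 WT/WT held 6233 microglia, 116 neutrophils and 683 other cells, which was 88.6%, 1.65% and 9.71% of its 7032 cells. Disc1 LI/LI held 1994 microglia, 3622 neutrophils and 2201 other cells, or 25.5%, 46.3% and 28.2% of its 7817 cells, so the composition behind any whole-library value differed widely. Although both samples were labelled as microglia, the Disc1 LI/LI library thus held more neutrophils than microglia. All 6 further microglia markers and all 8 further neutrophil markers were higher in their own class in both libraries. The deposited matrices summed to 33601957 UMIs for Disc1 WT/WT against 47731571 for Disc1 LI/LI, and 12 cell barcodes occurred in both. Disc1 itself, the targeted gene, was at 642 UMIs in the Disc1 WT/WT library, against 22 UMIs for Disc1 LI/LI, a level of 19.1 and 0.461 CPM. CPM are UMIs per 1e+06 UMIs of the library here, and of the class for all levels below. They come from 3′ tags, 1 per transcript, so levels of different genes can be compared without division by length, though capture can differ between genes.

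In the GRCm38 (mm10) build, 6 of the 7 genes lie on chromosome 7. Siglecf (chr7:43351341-43359531, plus strand), Siglecg (chr7:43408204-43418358, plus), Cd33 (chr7:43524216-43544428, minus) and Siglece (chr7:43651070-43660161, minus) lie near each other. Cd22 (chr7:30865402-30880342, minus) and Siglech (chr7:55768178-55778925, plus) lie farther away on the same chromosome, and Siglec1 (chr2:131069220-131086765, minus) lies on chromosome 2. Shared sequence was limited for most members. Between 0.459% (Siglech) and 2.60% (Cd22) of the distinct 31-base words of the annotated transcripts occurred in another gene, except for Siglecg at 6.83%, where 287 of 340 shared words came from Gm29791, a gene that was not in the feature list used for counting. Siglecf and Siglecg shared 25 such words. Cd22 overlaps exons of the antisense gene Gm29439, which had 0 UMIs in each class of both libraries.

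Promoters of the 4 members with the highest microglial level in Disc1 WT/WT are shown, each 250 bases before to 50 bases after the start of transcription in RefSeq (GRCm38.p6). They are Siglech (chr7:55767934-55768233, plus strand), Cd33 (chr7:43533122-43533421, minus), Siglece (chr7:43660112-43660411, minus) and Siglecf (chr7:43351091-43351390, plus). They are written 5′ to 3′ on the strand of the gene, with GAGGAA or its reverse complement TTCCTC, letters found in many sites bound by the myeloid factor PU.1, in capitals.
Siglech: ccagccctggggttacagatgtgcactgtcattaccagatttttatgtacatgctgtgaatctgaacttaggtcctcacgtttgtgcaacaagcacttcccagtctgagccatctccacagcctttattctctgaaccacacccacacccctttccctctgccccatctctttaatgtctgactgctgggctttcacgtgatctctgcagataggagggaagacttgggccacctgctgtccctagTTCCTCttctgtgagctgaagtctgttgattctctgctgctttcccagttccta
Cd33: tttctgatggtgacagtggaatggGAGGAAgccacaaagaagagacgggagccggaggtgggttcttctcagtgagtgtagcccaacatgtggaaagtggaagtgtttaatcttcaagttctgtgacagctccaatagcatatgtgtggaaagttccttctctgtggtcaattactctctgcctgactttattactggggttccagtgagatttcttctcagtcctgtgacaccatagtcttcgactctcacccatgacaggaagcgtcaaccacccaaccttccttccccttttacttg
Siglece: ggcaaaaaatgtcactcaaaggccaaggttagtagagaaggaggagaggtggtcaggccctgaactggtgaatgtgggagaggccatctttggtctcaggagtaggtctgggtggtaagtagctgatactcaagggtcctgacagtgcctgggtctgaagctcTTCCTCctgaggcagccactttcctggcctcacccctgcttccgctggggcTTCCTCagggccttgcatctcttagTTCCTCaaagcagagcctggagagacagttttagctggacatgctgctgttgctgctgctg
Siglecf: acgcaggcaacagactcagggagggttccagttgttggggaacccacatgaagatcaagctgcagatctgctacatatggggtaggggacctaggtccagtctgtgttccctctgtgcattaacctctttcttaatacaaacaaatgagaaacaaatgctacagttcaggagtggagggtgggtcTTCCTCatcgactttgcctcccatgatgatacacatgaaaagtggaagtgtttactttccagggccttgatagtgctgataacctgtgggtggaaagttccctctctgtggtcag
The 6 letters occurred 3 times in the Siglece window and 1 time each in those of Siglech, Cd33 and Siglecf. Of the 6 members with a promoter entry, 5 held them on either strand in at least 1 entry, and Cd22 did not. Of all 32851 promoter entries of the same length, 28.3% held them. That share counts single entries, whereas the members were counted by gene, and of Siglecg, entry 1 held them and entry 2 did not. A match of 6 letters is a description of the sequence and not evidence of binding. The Cd33 and Siglecf windows shared a run of 16 bases, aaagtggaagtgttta, which was longer than any run shared by another pair of members, where the longest was 10 bases.

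Siglech was the leading Siglec gene of microglia in both genotypes. Its level was 917 CPM (95% Poisson interval 906 to 928) in Disc1 WT/WT against 852 CPM (832 to 872) in Disc1 LI/LI microglia. It made up 69.3% and 71.9% of all UMIs of the 7 members in microglia, and 93.2% and 91.1% of the microglia held at least 1 Siglech UMI. Cd33 came next, at 314 CPM (308 to 321) in Disc1 WT/WT against 242 CPM (232 to 253) in Disc1 LI/LI, with a UMI in 69.8% and 59.7% of cells. Siglece, which encodes an inhibitory receptor of myeloid cells, was at 63.4 CPM (60.6 to 66.4) and 58.7 CPM (53.6 to 64.1), with a UMI in 24.4% and 20.8% of cells. Siglech, Cd33 and Siglece together therefore supplied all but a few percent of the Siglec UMIs of microglia.

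The remaining 4 members were low in microglia. Siglecf was at 14.9 CPM (13.5 to 16.4) in Disc1 WT/WT against 17.8 CPM (15.1 to 20.9) in Disc1 LI/LI. Siglecg was at 4.38 CPM (3.66 to 5.20) and 9.28 CPM (7.34 to 11.6), and Cd22 at 7.79 CPM (6.82 to 8.86) and 4.64 CPM (3.30 to 6.34), so that these B cell genes stood in opposite order in the 2 libraries. Siglec1 had 30 UMIs in Disc1 WT/WT against 4 in Disc1 LI/LI, or 1.01 CPM (0.682 to 1.44) and 0.476 CPM (0.130 to 1.22). Within each library, the counting intervals of neighbouring members in the order of levels did not overlap, for all 7 members in microglia.

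**Figure D1:**
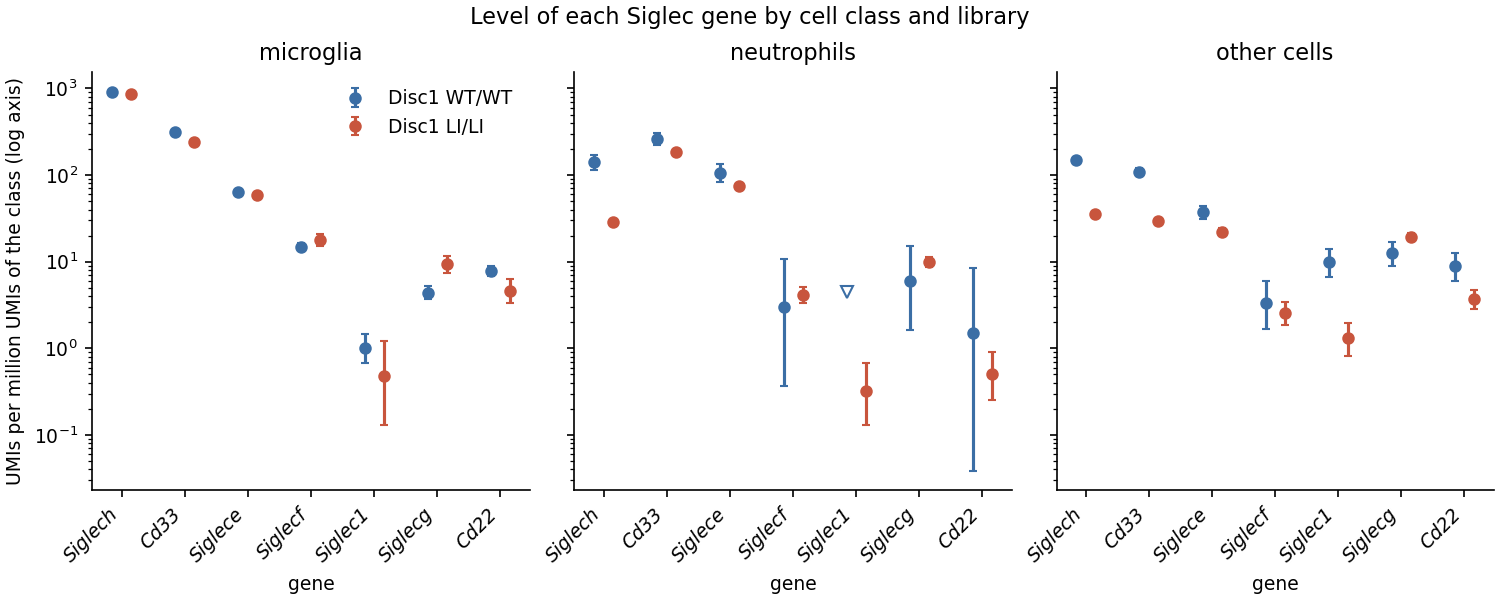
Level of each member in CPM of the class (log axis), by class (panels) and library (colours), with 95% Poisson intervals as bars and an open triangle at the level of 3 UMIs where no UMI was found. Siglech stands highest in microglia, at 917 and 852 CPM, whereas Cd33 stands highest in neutrophils, at 261 and 184 CPM.

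At the level of single cells, Siglech was spread over most microglia instead of being carried by a few. A Disc1 WT/WT microglial cell held a median of 4 Siglech UMIs (quartiles 2 and 6, highest 31) and a Disc1 LI/LI cell a median of 3 (quartiles 2 and 5, highest 21), at median depths of 4271 and 3792.5 UMIs. For Cd33 the median was 1 UMI in both (highest 10 and 7), and for Siglece it was 0 (highest 5 and 5). Shares of positive cells rise with depth, so each cell was also thinned to 1000 UMIs, which left out 105 and 17 shallower microglia. At that equal depth, a Siglech UMI was found in 57.9% (exact binomial interval 56.7 to 59.2) of Disc1 WT/WT against 54.9% (52.7 to 57.1) of Disc1 LI/LI microglia. Cd33 was found in 25.3% (24.3 to 26.5) and 22.9% (21.1 to 24.8), and Siglece in 6.49% (5.89 to 7.14) and 4.96% (4.04 to 6.01). The intervals of both libraries overlapped narrowly for each of the 3 genes.

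**Figure D2:**
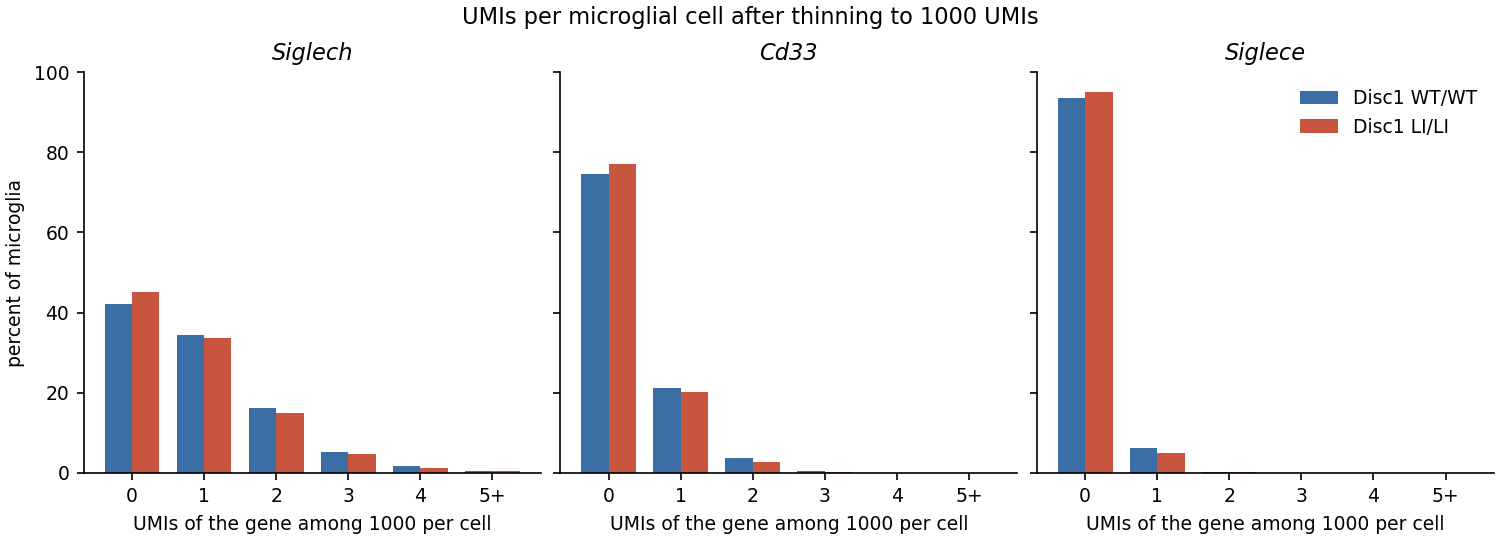
Percent of microglia (vertical axis) with 0 to 5 or more UMIs of Siglech, Cd33 and Siglece (panels) after each cell was thinned to 1000 UMIs, by library (colours). No Siglech UMI was drawn in 42.1% of Disc1 WT/WT against 45.1% of Disc1 LI/LI microglia, against 74.7% and 77.1% for Cd33.

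Some microglia held transcripts of more than 1 Siglec gene even at 1000 UMIs. In Disc1 WT/WT, 51.3% of 6128 thinned microglia held 1 member, 18.1% held 2, 1.55% held 3 and 29.0% held none. In Disc1 LI/LI, the corresponding shares of 1977 microglia were 51.2%, 15.7%, 0.910% and 32.2%. Levels did not rise steadily with the depth of the cell. Across 4 equal bins of Disc1 WT/WT microglia ranked by UMIs, Siglech ranged from 869 to 945 CPM, Cd33 from 300.4 to 331 CPM and Siglece from 61.7 to 66.7 CPM. In Disc1 LI/LI the corresponding ranges were 808 to 916, 217 to 285 and 53.2 to 65.7 CPM.

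The genotype comparison asked whether the Siglec genes of microglia differed in mice with the impaired Disc1 locus. Of 11113 genes with at least 50 UMIs in microglia, 3.26% were at least 1.5-fold higher and 18.3% at least 1.5-fold lower in Disc1 LI/LI, and the median log2 ratio of all of them was -0.20. Among the 6 members with that many UMIs, Siglecg was past 1.5-fold higher and Cd22 past 1.5-fold lower, and the median of the 6 was -0.11.

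Siglech differed little between the genotypes. Its log2 ratio of Disc1 LI/LI over Disc1 WT/WT microglia was -0.11 (95% interval -0.14 to -0.07), slightly above the all-gene median, and it changed sign to 0.025 with TMM scaling, which added 0.13 to every gene. Siglece had a log2 ratio of -0.11 (-0.26 to 0.03), which also changed sign with TMM scaling, to 0.018. Siglecf had a log2 ratio of 0.26 (-0.02 to 0.53), with an interval that reached 0, and it was -0.05 in cells thinned to 1000 UMIs.

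Cd33 was 1.30-fold lower in Disc1 LI/LI microglia, with a log2 ratio of -0.38 (-0.45 to -0.31). This ratio lay below the all-gene median but between the quartiles of all genes tested, -0.49 and 0.09. The size depended on the scaling, at -0.24 with TMM and -0.21 in thinned cells, but the sign did not. Cd22, an inhibitory co-receptor of the B cell receptor, had a log2 ratio of -0.75 (-1.28 to -0.25) on 39 against 231 UMIs. It lay between -1.12 and -0.62 in the 10 alternative settings tried. Siglec1 had too few UMIs for more than its counts.

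Siglecg was 2.12-fold higher in Disc1 LI/LI microglia, with a log2 ratio of 1.08 (0.658 to 1.498) on 78 against 130 UMIs. B cell markers moved with it. The 8 markers of B cells summed to 46.9 CPM in Disc1 WT/WT against 156 CPM in Disc1 LI/LI microglia, ranged from 0.135 to 33.2 and from 1.67 to 58.7 CPM, and none was at 0. Of the microglia with a Siglecg UMI, 21 of 124 in Disc1 WT/WT and 32 of 70 in Disc1 LI/LI also held a UMI of a B cell marker, against 16.1% and 18.7% of all microglia. Without the microglia that held such a UMI, Siglecg was at 4.45 CPM (3.65 to 5.38) and 5.78 CPM (4.09 to 7.94), and the log2 ratio was 0.38 (-0.20 to 0.92). With a stricter microglia gate (0.8% and 0.2% in place of 0.4% and 1%) it was 0.54 (-0.03 to 1.09), so the interval reached 0 in both.

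**Figure D3:**
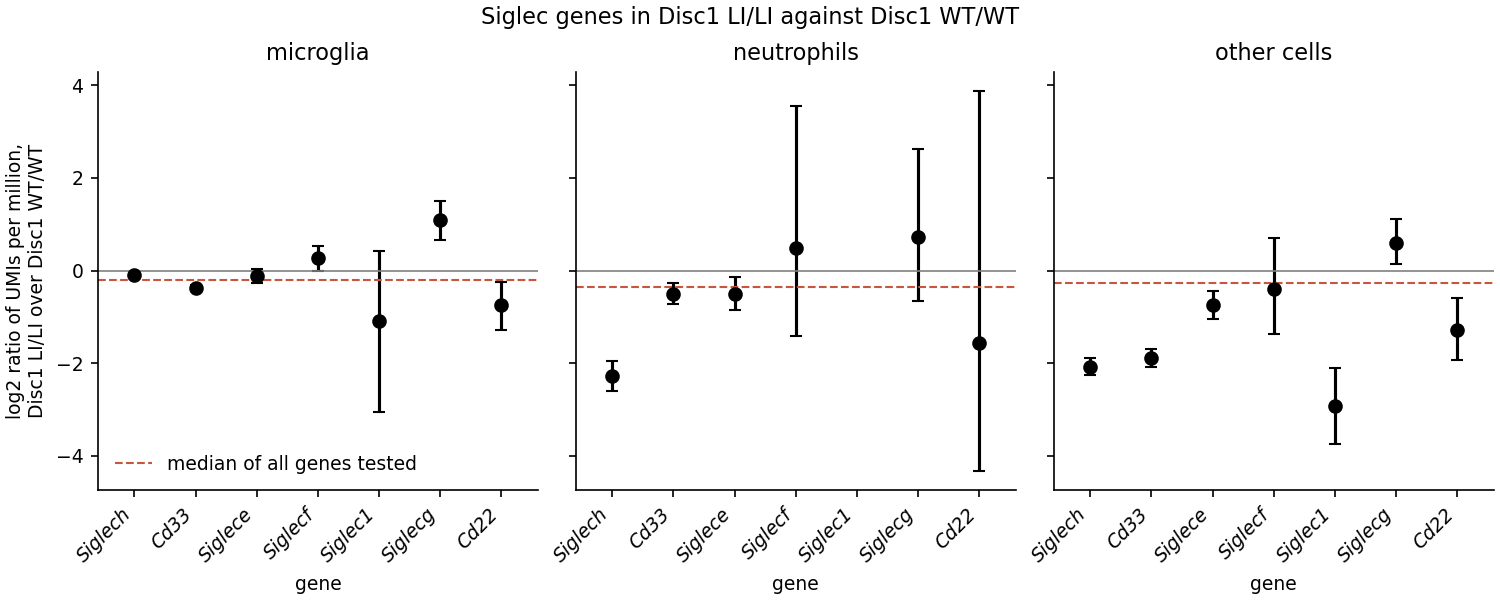
Log2 ratio of the level in Disc1 LI/LI over Disc1 WT/WT (vertical axis) for each member with at least 10 UMIs over both libraries and none at 0, by class (panels), with 95% intervals for counting error and the median of all genes tested as a dashed line. In microglia, Siglecg lies at 1.08 and Cd33 at -0.38, and Siglech and Siglece lie at -0.11 but at 0.025 and 0.018 with TMM scaling. The neutrophil ratios of Cd33 and Siglece also turn positive with TMM scaling, at 0.040 and 0.031.

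Neutrophils carried a different set of Siglec genes. Cd33 led there, at 261 CPM (223 to 303) in the 116 Disc1 WT/WT neutrophils and 184 CPM (178 to 189.8) in the 3622 Disc1 LI/LI neutrophils, with a UMI in 69.0% and 62.6% of cells. Siglece followed at 106 CPM (83.1 to 134) and 74.6 CPM (71.0 to 78.3), with a UMI in 39.7% and 32.6%. Cd33 made up 50.3% and 60.8% of the Siglec UMIs of neutrophils, and Siglece 20.5% and 24.7%.

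Siglece was higher in neutrophils than in microglia of the same library. The log2 ratio of microglia over neutrophils was -0.75 (-1.09 to -0.38) in Disc1 WT/WT and -0.35 (-0.50 to -0.20) in Disc1 LI/LI, and it was negative in all 11 alternative settings in each library. For Cd33 the ratio was 0.27 (0.05 to 0.49) and 0.40 (0.32 to 0.48). This order of Cd33 was not stable, since TMM scaling gave -0.61 and -0.92 and thinned cells gave -0.06 and -0.07, so no direction held for Cd33 under every scaling. Siglech had a log2 ratio of 2.70 (2.41 to 3.01) and 4.88 (4.76 to 5.00), the largest gap among the members with at least 10 UMIs in both classes. Siglech, Siglecf and Cd22 were at least 4-fold higher in microglia in both libraries, 3 of the 6 members with at least 50 UMIs, against 18.3% of 10938 genes in Disc1 WT/WT and 31.5% of 10477 genes in Disc1 LI/LI. For Siglecf and Cd22 in Disc1 WT/WT this rested on 2 and 1 neutrophil UMIs. With TMM scaling, none of the 3 was past 4-fold in Disc1 WT/WT, where the log2 ratios were 1.82 for Siglech, 1.43 for Siglecf and 1.49 for Cd22. In Disc1 LI/LI, Siglech remained past it with TMM scaling, at 3.56, but Siglecf (0.78) and Cd22 (1.87) did not.

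Siglech in neutrophils was as low as other genes of microglia. Siglech was at 141 CPM in Disc1 WT/WT against 29.0 CPM in Disc1 LI/LI neutrophils, or 15.4% and 3.41% of the microglial level of the same library. The 11 microglia genes examined, which include the 5 used to class cells as well as C1qa, ranged from 15.5% to 27.0% in Disc1 WT/WT and from 2.88% to 5.00% in Disc1 LI/LI. For every 100 UMIs of the 5 microglia genes used to class cells, there were 8.47 and 8.72 Siglech UMIs in microglia and 7.44 and 9.61 in neutrophils. Siglech thus lay at the lower edge of that range in Disc1 WT/WT and inside it in Disc1 LI/LI, and a Siglech UMI was found in 19.0% and 5.72% of neutrophils at median depths of 4844.5 and 4194 UMIs. The source of these UMIs was not tested, and doublets were not removed. Cd33, at 82.9% and 75.9% of the microglial level, and Siglece, at 168% and 127%, lay far above that range, and in Disc1 LI/LI Siglecg (107%), Siglecf (23.4%) and Cd22 (11.0%) lay above it too.

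**Figure D4:**
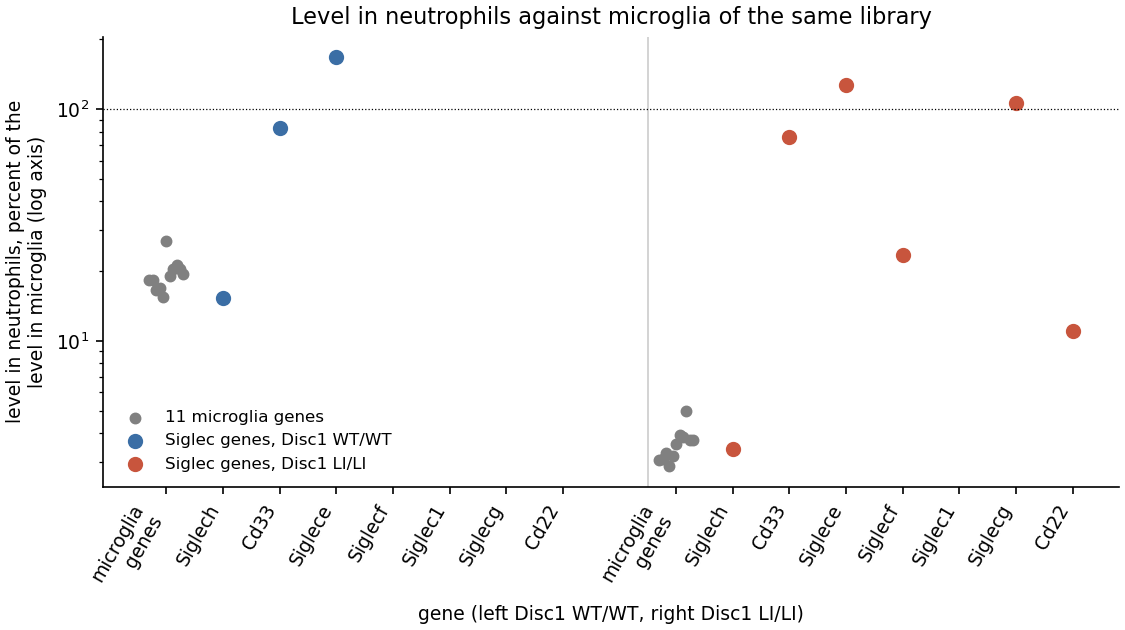
Level in neutrophils as percent of the level in microglia of the same library (vertical log axis) for 11 microglia genes (grey) and for each member with at least 10 neutrophil UMIs (coloured), with Disc1 WT/WT on the left and Disc1 LI/LI on the right. The dotted line marks 100%. Siglech, at 15.4% and 3.41%, lies with the microglia genes, and Cd33 and Siglece lie between 75.9% and 168%, although the position of Cd33 against 100% depends on the scaling.

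Cd33 and other members varied within the neutrophils. The neutrophils were divided by the genes Camp, Ltf and Ngp of secondary granules, which are transcribed in immature neutrophils, into cells with at least 1% of UMIs from them and the remaining cells. This division was made after the data were seen. In Disc1 LI/LI, Cd33 was at 123 CPM in the 1631 cells with granule transcripts and 309.8 CPM in the 1991 others, a log2 ratio of -1.34 (-1.43 to -1.24), which was -0.69 (-0.83 to -0.54) when cells with under 1000 genes were left out. The 116 Disc1 WT/WT neutrophils gave 199 and 369.7 CPM, with a log2 ratio of -0.89 (-1.34 to -0.45). Siglece differed less, at 67.1 against 90.1 CPM in Disc1 LI/LI with a log2 ratio of -0.42 (-0.57 to -0.28), and it turned to 0.17 with the same cells left out. Other members were also lower in the Disc1 LI/LI cells with granule transcripts. Siglech was at 20.6 against 46.3 CPM (log2 ratio -1.17, -1.40 to -0.94) and Siglecf at 3.17 against 6.23 CPM (-0.98, -1.60 to -0.35). The Siglech ratio in Disc1 WT/WT was -1.01 (-1.63 to -0.40). For Siglecg in Disc1 LI/LI it was -0.18 (-0.59 to 0.24), and no all-gene median is given for this division. The cells with granule transcripts were deeper, at a median of 7055 against 2765 UMIs in Disc1 LI/LI, and the part of depth in these values was not tested.

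Between genotypes, neutrophil Cd33 had a log2 ratio of -0.50 (-0.72 to -0.28) and Siglece of -0.51 (-0.86 to -0.15). Both ratios lay below the all-gene median of -0.35 but between the quartiles of all genes tested, -0.86 and 0.12. They turned slightly positive with TMM scaling, at 0.040 and 0.031. Of 8769 genes, 11.7% were at least 1.5-fold higher and 37.8% at least 1.5-fold lower in Disc1 LI/LI neutrophils. Among the 5 members with at least 50 UMIs, Siglecg was past the fold upwards, on 214 against 4 UMIs and with a log2 ratio of 0.73 (-0.65 to 2.61) that was -0.22 in thinned cells, and Siglech downwards, at -2.28 (-2.59 to -1.95). Relative to microglia, the 11 microglia genes above were lower in neutrophils of the Disc1 LI/LI library as well. Siglecf had 90 and 2 UMIs in Disc1 LI/LI and Disc1 WT/WT neutrophils, with a log2 ratio of 0.48 (-1.42 to 3.54) that was past 1.5-fold with TMM scaling, at 1.02. In the same neutrophils, Cd22 had 11 and 1, and Siglec1 had 7 and 0, the last of which allows up to 4.50 CPM in Disc1 WT/WT.

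Among the other cells, the members differed in where they were highest. Cells were assigned to the marker list of which they held the most distinct markers, at least 3, by a rule set after the data were seen, and are called by that list. Leading genes named for these groups include markers of the lists themselves, so they are no separate check of the names. Klk1, Ccr9, Lyve1, Cd163, Ms4a1, Fcmr, Mpo and Elane are such markers. In the 21 plasmacytoid dendritic-like cells of Disc1 LI/LI, led by Klk1, Sct and Ccr9 among other genes, Siglech was at 1187 CPM (1028 to 1363) and was present in 21 of 21 cells. This exceeded the level of microglia in the same library, 852 CPM. There were 221 Siglech UMIs for every 100 UMIs of the microglia class genes in these cells, against 8.72 in microglia. In Disc1 WT/WT only 1 cell met the rule, and it was led by other genes (Trpm3 and Htr2c), so it was not named.

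Siglecg and Cd22 were highest in B cell-like cells. Siglecg was at 370.4 CPM (219.5 to 585) in 13 cells of Disc1 WT/WT against 189 CPM (163 to 219) in 164 cells of Disc1 LI/LI, the latter led by immunoglobulin genes. Cd22 was at 103 CPM (33.4 to 240.1) and 46.0 CPM (33.4 to 61.8) in the same cells, so that its intervals overlapped between genotypes. Those of Siglecg barely missed each other, at 219.5 and 218.9 CPM, and the Disc1 WT/WT value rested on 18 UMIs in 8 cells. The 13 cells of Disc1 WT/WT were led by Ms4a1, Iglc1 and Fcmr among other genes. The part of the makeup of these cells in the Siglecg values was not tested. Siglecg was also found in conventional dendritic-like cells, at 41.0 CPM (18.7 to 77.8) in 15 cells and 43.8 CPM (26.4 to 68.4) in 37 cells, and in the plasmacytoid dendritic-like cells at 59.0 CPM (28.3 to 109). In the 102 granulocyte progenitor-like cells of Disc1 LI/LI, led by immunoglobulin segments beside Mpo and Elane, Siglecg was at 16.4 CPM (11.9 to 21.9) and Siglecf at 9.46 CPM (6.18 to 13.9).

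Siglec1, sialoadhesin, had its highest level in border macrophage-like cells, which were led by Lyve1, Folr2 and Cd163 among other genes. There it was at 38.3 CPM (26.0 to 54.3) in 197 Disc1 WT/WT cells and 28.7 CPM (11.5 to 59.1) in 50 Disc1 LI/LI cells, which held 31 of the 32 and 7 of the 23 Siglec1 UMIs of the other cells. The same cells held Cd33 at 170.3 CPM (143 to 201) and 94.2 CPM (59.7 to 141), and Siglece at 69.1 CPM (52.2 to 89.8) and 94.2 CPM (59.7 to 141). Siglech stood at 122 and 57.4 CPM there, with 6.53 and 4.95 Siglech UMIs for every 100 of the microglia class genes, below the ratio in microglia. In the 1235 classical monocyte-like cells of Disc1 LI/LI, Cd33 was at 30.97 CPM (27.6 to 34.6) and Siglece at 24.6 CPM (21.6 to 27.9), both lower than in neutrophils of that library.

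**Figure D5:**
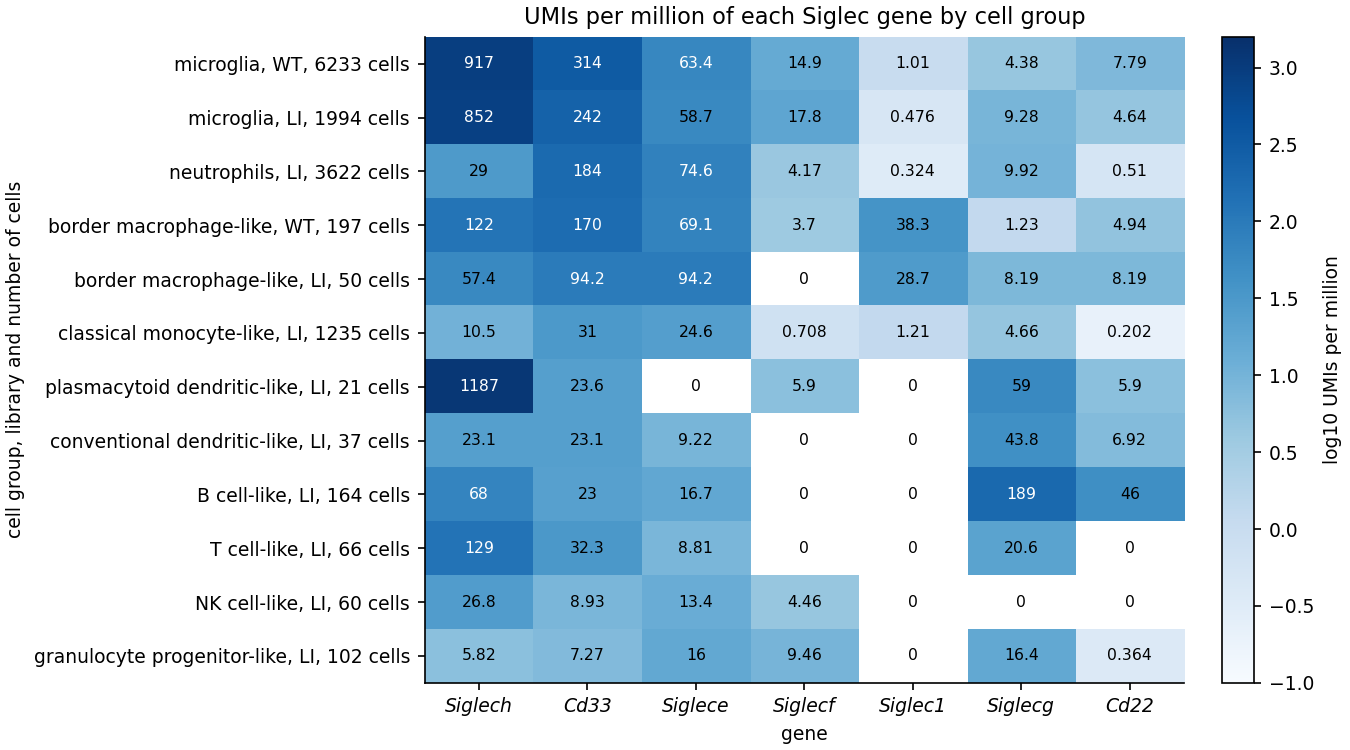
Level of each member (columns) in CPM, printed in each box and shaded on a log10 scale, for microglia of both libraries, neutrophils of Disc1 LI/LI and groups of other cells (rows, with library and number of cells). White boxes held no UMI. Siglech is highest in plasmacytoid dendritic-like cells (1187 CPM), Siglecg and Cd22 in B cell-like cells (189 and 46.0 CPM in Disc1 LI/LI), and Siglec1 in border macrophage-like cells (38.3 and 28.7 CPM).

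Over all other cells, 12.9% of 10487 genes were at least 1.5-fold higher and 35.5% at least 1.5-fold lower in Disc1 LI/LI, with a median log2 ratio of -0.27. Siglecg was past the fold upwards, at a log2 ratio of 0.60 (0.13 to 1.11). Siglech (-2.07), Cd33 (-1.89), Siglece (-0.75), Siglec1 (-2.92) and Cd22 (-1.28) were past it downwards, which was 5 of the 7 members. With TMM scaling, Siglece was at -0.26 and no longer past it, which left 4. The makeup of this class moved with these values. Border macrophage-like cells were 28.8% of the other cells in Disc1 WT/WT against 2.27% in Disc1 LI/LI, and classical monocyte-like cells were 6.00% and 56.1%, so that genotype and makeup cannot be told apart in this class.

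States of microglia were set apart by at least 3 detected markers of a list, where the interferon list and the list of disease-associated genes had 9 markers each among the genes counted. Siglec1 was concentrated in interferon-responding cells. In Disc1 WT/WT, 67 such microglia held 9 of the 30 Siglec1 UMIs, at 20.9 CPM against 0.718 CPM in the other 6166, a log2 ratio of 4.86 (3.55 to 6.05). In Disc1 LI/LI, 25 such cells held 1 of the 4 UMIs. The remaining members were not higher beyond their counting intervals. Siglech was lower, at 786 against 919 CPM (log2 ratio -0.23, -0.38 to -0.07) in Disc1 WT/WT and 658 against 855 CPM (-0.38, -0.68 to -0.09) in Disc1 LI/LI, and the Cd33 and Siglece intervals included 0 in both libraries.

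Microglia with disease-associated genes were rare, 37 in Disc1 WT/WT against 5 in Disc1 LI/LI. In Disc1 WT/WT they had less Siglech, at 749 against 919 CPM (log2 ratio -0.29, -0.48 to -0.11), and less Cd33, at 247 against 315 CPM (-0.35, -0.69 to -0.04). Siglecf was 2.67-fold higher in them, at 39.1 against 14.6 CPM (log2 ratio 1.42, 0.50 to 2.21), on 13 UMIs. These cells were deeper, with a median of 8312 against 4262.5 UMIs, and interferon-responding cells had 5448 against 4264, and the part of depth in these values was not tested. The 5 cells of Disc1 LI/LI held 15 Siglech, 2 Cd33 and 0 Siglecf UMIs.

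Pattern likeness was measured by Pearson's r of log2(CPM + 1) across the 13 groups of at least 50 cells in the 2 libraries, over 10694 genes with at least 200 UMIs. The groups share libraries and free RNA, so r is a description only. The genes most like Siglech were Lrrc3 (r = 0.99), Olfml3 (0.99), Rapgef5 (0.99), Plxdc2 (0.98) and P2ry13 (0.98), of which Olfml3 was used to class microglia. Cd33 was most like Cpeb2, Slc35a5 and Phf21a (r = 0.95 each), Snx13 and Kctd12 (0.94 each), and Siglece most like Rnf141 (0.94), Ddx3x (0.93), Dennd2a, Dennd5a and Alox5 (0.92 each). Among the members, Cd33 and Siglece were most alike (r = 0.85), followed by Siglech and Cd33 (0.74). Siglecg was most like Coq7 (0.88), Cd79b (0.87), Ighg2b, Myl4 and Gm30211, and Cd22 most like Pxdc1 (0.85), H2-Ob (0.85), Swap70, E330020D12Rik and Blnk, so that each list holds some genes of B cells. The B cell-like cells of Disc1 LI/LI were the only B cell-like group among the 13, and their part in these r values was not tested. Siglecf was most like Lekr1 (0.88), AW209491, Tal1, Trim32 and Pex11g, and Siglec1, with 96 UMIs, was under the minimum.

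Genes that act with the Siglecs, 10 other inhibitory receptors and 2 other Siglec genes were followed together as 9 lists. In microglia, 5 of the 44 listed genes with at least 50 UMIs were at least 1.5-fold higher in Disc1 LI/LI (11.4%, against 3.26% of all genes) and 1 at least 1.5-fold lower (2.27%, against 18.3%). Of the 2 adaptors, which were listed for both Siglec-H and CD33, Hcst was past 1.5-fold higher and Tyrobp was not. Tyrobp, which carries the signal of Siglec-H, was at 3178 CPM in Disc1 WT/WT against 4338 CPM in Disc1 LI/LI microglia (log2 ratio 0.45, 0.43 to 0.47), and Hcst (DAP10) at 28.7 and 47.8 CPM (0.74, 0.56 to 0.91). Hcst was far higher in neutrophils, at 223 and 249 CPM.

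Of the 6 kinases, Syk, which reads the DAP12 motif, was at 98.0 and 66.5 CPM (log2 ratio -0.56, -0.69 to -0.43), and Lyn, a kinase that phosphorylates inhibitory motifs, at 723 and 528 CPM (-0.45, -0.50 to -0.41). Fyn and Src had intervals that included 0, and Fgr was past 1.5-fold higher, at 2.66 and 5.71 CPM (1.10, 0.55 to 1.64). None of the 4 phosphatases was past 1.5-fold, and the sign of the smallest ratios, such as that of Ptpn6, depends on the 0.13 that TMM scaling adds. Ptpn6 (SHP-1) was at 174 and 160.0 CPM (-0.12, -0.21 to -0.04), Ptpn11 (SHP-2) at 41.1 and 33.2 CPM (-0.31, -0.50 to -0.12), Inpp5d (SHIP1) at 436 and 353 CPM (-0.31, -0.37 to -0.25), and Ptpn22 at 5.70 and 6.54 CPM (0.20, -0.27 to 0.65).

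Most transcripts of ligand synthesis stayed within 1.5-fold. Of the 5 genes of sialic acid synthesis and transport, none was past 1.5-fold, with a median log2 ratio of -0.16. Cmas, which activates sialic acid for transfer, led at 69.5 and 62.2 CPM. It was followed in Disc1 WT/WT by Slc35a1, the transporter of activated sialic acid into the Golgi, at 42.8 and 30.7 CPM (log2 ratio -0.48, -0.68 to -0.29). Of the 12 sialyltransferases with at least 50 UMIs, 1 was past 1.5-fold, St3gal1 upwards at 1.99 and 3.69 CPM, and St3gal6 (417 and 363 CPM) and St3gal5 (158 and 143 CPM) were the highest in Disc1 WT/WT. Of the sialidases, Neu1 was at 40.3 and 38.5 CPM and Neu3 was past 1.5-fold lower on 5 against 53 UMIs, and the esterase Siae was at 18.7 and 16.8 CPM. Cd24a, which encodes a ligand of Siglec-G, was at 0.674 and 11.8 CPM (log2 ratio 4.13, 3.42 to 4.90), on 20 and 99 UMIs. Of the 10 other inhibitory receptors, Cd300lf alone was past 1.5-fold, at 1.38 and 4.52 CPM, and Lair1 (678 and 560.1 CPM) and Sirpa (606 and 435 CPM) were the highest in Disc1 WT/WT.

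Neutrophil transcripts moved with several of these values. In the microglia class, S100a8 and S100a9 summed to 27.8 CPM in Disc1 WT/WT against 686 CPM in Disc1 LI/LI. The 8 further neutrophil markers summed to 154 and 613 CPM, with none at 0. They ranged from 0.135 to 142 CPM in Disc1 WT/WT, where Csf3r made up most of the sum, and from 4.04 to 170 CPM in Disc1 LI/LI. Cd24a was at 420 and 392 CPM in neutrophils, Cd300lf at 117 and 105 CPM and Fgr at 88.4 and 86.5 CPM, each far above its microglial level. The part of neutrophil RNA in the microglial values of Cd24a, Cd300lf, Fgr and Hcst was not tested. In neutrophils, 3 of 35 listed genes were past 1.5-fold higher and 14 past 1.5-fold lower in Disc1 LI/LI, or 8.57% and 40.0%, against 11.7% and 37.8% of all genes.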

How the data were processed

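Single-cell libraries of 1 pool of 6 Disc1 WT/WT and 1 pool of 6 Disc1 LI/LI brains were analysed. Per the file headers, the authors counted UMIs with Cell Ranger 6.1.2, and the deposited values are raw counts per gene and barcode. Their processing notes name the mm10 build, STAR and Seurat 3.0.1. The droplet chip and kit version of each library were not given in the sources used here.

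Cells were filtered and classed as stated in the report. UMIs were summed over a class and divided by the class total, with exact Poisson, exact binomial (Clopper-Pearson) and conditional ratio intervals at 95%, which cover counting error only. A count of 0 was read through a floor of 3 UMIs. Ratios were compared for genes with at least 50 UMIs over both groups. Median depth of microglia was 4271 and 3792.5 UMIs. Named were all 7 members, every adaptor, kinase and phosphatase listed (except a kinase that is not reported here), the 2 genes of each other list that were highest in Disc1 WT/WT microglia, and the 5 genes most like each member. St3gal1, Neu3, Cd300lf, Mobp and Mog were added after their values were seen. Members, lists and tests were chosen with earlier results of these data known. Alternatives were other cell filters and gates, TMM scaling (edgeR 4.0.16), other totals, means over cells, thinning and leaving out the deepest 5% of cells. The removal of microglia with B cell marker UMIs, the division of neutrophils and the rule for groups of other cells were added after the data were examined. Clec7a and Ahsp matched no symbol and St6galnac2 matched more than 1 row, so they were left out of their lists. The ratio script was tested on simulated data. Gene positions came from GENCODE vM21, and promoters from RefSeq. Calculations ran in R 4.3.3 and in Python 3.11.15 with pandas 2.3.3, scipy 1.17.1, matplotlib 3.10.9 and numpy 2.4.6.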

Additional observations from a re-analysis of the deposited data

How the results depend on the processing

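With 1 library per genotype, no setting measures variation between animals, and low members (Siglec1, Cd22, Siglecg and Siglecf) rest on few UMIs. Of 293 recomputed values for 40 results, 220 stayed within the counting interval (for counts of genes, within 1.5 times), 64 moved outside it, and 9 changed the sign of a value whose interval had not included 0. Some moves followed from the setting itself, since thinning lowers shares of positive cells and a lower UMI minimum adds genes to the counts. The cause of the other changes was not tested. No paired analysis was possible because each genotype had 1 library.

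With TMM scaling, the log2 ratio of Disc1 LI/LI over Disc1 WT/WT changed sign for Siglech in microglia (0.025) and for Cd33 (0.040) and Siglece (0.031) in neutrophils, and for Cd33 in microglia it was -0.24. The shift that TMM added was 0.13 in microglia, 0.54 in neutrophils and 0.48 in other cells. In thinned cells, the microglial ratio of Cd33 was -0.21 and that of Siglece -0.43. With the stricter microglia gate, Siglech was at -0.063 and Siglecg at 0.54, and without microglia that held a B cell marker UMI, Siglecg was at 0.38.

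For microglia over neutrophils in Disc1 WT/WT, Siglech was 1.82 with TMM, 3.53 as a mean over cells, 3.26 in thinned cells and 3.27 without the deepest cells, Cd33 was -0.61, 0.022 and -0.055 in the first 3 of these, and Siglece was -1.63 with TMM. In Disc1 LI/LI, with at least 1000 genes per cell, Siglech was 4.54, Cd33 0.92 and Siglece -0.15. With TMM they were 3.56, -0.92 and -1.66, as means over cells 5.34, -0.17 and -0.62, and in thinned cells 5.02, -0.065 and -0.85. Without the deepest cells, Siglech was 4.69 and Cd33 0.12. Siglecg, whose interval included 0, was -0.63 with the stricter microglia gate, -1.41 with TMM, 0.47 as a mean over cells, 0.42 without the deepest cells and -0.78 without B cell marker UMIs. Siglece between neutrophils with and without granule transcripts was 0.17 with at least 1000 genes per cell.

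Of genes past 1.5-fold in microglia, 362 were higher and 2029 lower, against 526 and 1244 with TMM. The higher ones were 913 with at least 10 UMIs and 1871 with at least 1. A lower minimum adds genes to those compared, so such counts cannot fall, here or in neutrophils. The shares at these minimums are not given. In neutrophils, 1023 were higher and 3315 lower, against 2533 and 1372 with TMM, and 5290 were lower with at least 1 UMI. Genes at least 4-fold higher in microglia than in neutrophils numbered 2007 (Disc1 WT/WT) and 3299 (Disc1 LI/LI, same comparison), against 426 and 1203 with TMM.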

Other observations

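Mag (Siglec-4a), a Siglec of myelin-forming oligodendrocytes that is outside the 7 receptors above, was at 24.7 CPM in Disc1 WT/WT and 24.5 CPM in Disc1 LI/LI microglia, on 732 and 206 UMIs, with a log2 ratio of -0.01 (-0.24 to 0.21). It was lower in neutrophils (7.49 and 3.01 CPM) and in other cells (7.05 and 1.53 CPM). The oligodendrocyte genes Mobp (0.101 and 0 CPM) and Mog (0.135 and 0 CPM) were near 0 in the same microglia. A Mag UMI was found in 655 Disc1 WT/WT and 187 Disc1 LI/LI microglia. Mag lies next to Cd22 on chromosome 7 (chr7:30899176-30914873, minus strand, GRCm38), and 25 and 4 microglia held UMIs of both genes. Siglec15, a further mouse Siglec gene, had 0 UMIs in all classes of both libraries, which allows up to 0.101 CPM in Disc1 WT/WT microglia.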
